A study of Mus musculus with 116 samples.

Results

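The G2/M and mitosis genes are 54 genes whose products carry a cell from the end of DNA replication through chromosome segregation to division. They were taken as a fixed list of gene symbols, not from measured values, and all 54 were found among the 40202 gene symbols in the count files. CDK1 bound to cyclin B starts mitosis, the spindle and kinetochores attach and align the chromosomes, and the anaphase-promoting complex then marks cyclin B and other proteins for destruction. Most of these transcripts are known to build up in G2 and mitosis and to be low in G1, so in a growing culture they differ from cell to cell. Much of this timing is laid to promoter elements: a short CHR element bound by MuvB complexes, and CCAAT boxes bound by NF-Y.

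The libraries came from 2 untreated mouse cell lines under standard culture and were made by nanoSPLITS, in which the lysate of sorted cells is held in a nanodroplet that is split between RNA sequencing and protein measurement. C10 cells are of the alveolar type II epithelium, the surfactant-making cells of the lung, and SVEC cells are endothelial, the type that lines vessels. C10 gave an input series of 8 libraries of 1 cell, 6 of 3 cells and 6 of 10 cells, and a separate set of 48 single-cell libraries; SVEC gave 48 single-cell libraries. No genotype, treatment or cell-cycle stage sets the groups apart, and no label says which libraries share a culture, so p-values measure the spread between these libraries only.

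Depth touches every value below. Libraries held 430798 to 15385625 counts in the 1-cell group, 6889508 to 14018116 in the 3-cell group and 8313314 to 14778988 in the 10-cell group. The 46 C10 single-cell libraries with at least 1000 counts held 83188 to 5911755 (median 1881700), and the 48 SVEC libraries 5122 to 2831907 (median 434945). In 1-cell replicate 1, mitochondrial genes took 64.6% of counts and 538 genes were detected; its results are given with and without it where it matters. The defining markers of the labelled tissues were low. Of 16 alveolar epithelial markers, 9 had a count in some C10 single-cell library and 2, Etv5 and Cdh1, in at least 50% of them, with a summed level of 0 to 216 CPM. In SVEC single cells the summed level of the same markers was 0 to 371 CPM. Of 3 tested by edgeR, Cdh1 alone was called, as higher in C10 than in SVEC (log2 fold change 3.05, edgeR adjusted p = 5.09e-07). Of 18 endothelial markers, 8 had a count in some SVEC library and 0 in at least 50% of them, with a summed level of 0 to 138 CPM. In C10 single cells that level was 0 to 48.3 CPM, with a median of 0.738 against 0 in SVEC. Of 3 tested by edgeR, Flt1 and Tek were called, 1 of them higher in C10 and 1 lower. Sftpa1, Sftpb, Sftpc and Sftpd were at 0 in all single-cell libraries of both lines, and Kdr, Tie1 and Cldn5 were at 0 in all SVEC libraries. Summed over 8 fibroblast and smooth muscle markers, mainly Dcn, the level ran from 159 to 13920 CPM in C10 and from 0 to 9846 CPM in SVEC single cells.

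Promoters of the members that varied most closely with the rest are shown first, because the elements above lie there. For 48 of the 54 members RefSeq (GRCm38.p6) gave a window of 250 bases before to 50 bases after the start of the gene. The CHR core TTTGAA, searched on both strands, was in 68.75% of the 48 windows and in 18.0% of all 26525 windows of that length. Its variant TTCGAA was in 8.33% against 1.60%. The box CCAAT, on either strand, was in 77.1% against 38.0%, and at least 2 copies were in 60.4% against 12.2%. A window with CCAAT and either CHR core was found for 30 of 48 members (62.5%) and for 7.69% of all windows. Such letters are matches only, not shown sites. The 4 members with the highest mean co-variation over both lines and a window of their own were Ube2c, Birc5, Cdc20 and Ndc80. Their 150 bases before the start are printed 5′ to 3′ on the gene's strand, with CCAAT and TTTGAA or their reverse complements in capitals.
Ube2c, chr2:164769779-164769928, plus strand: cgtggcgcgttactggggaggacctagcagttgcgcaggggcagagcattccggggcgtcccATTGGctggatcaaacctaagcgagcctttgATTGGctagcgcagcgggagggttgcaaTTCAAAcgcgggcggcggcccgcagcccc
Cdc20, chr4:118437344-118437493, minus strand: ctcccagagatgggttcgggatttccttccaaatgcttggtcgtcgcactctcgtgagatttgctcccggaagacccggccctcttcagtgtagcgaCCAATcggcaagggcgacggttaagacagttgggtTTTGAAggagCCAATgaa
Birc5, chr11:117849087-117849236, plus strand: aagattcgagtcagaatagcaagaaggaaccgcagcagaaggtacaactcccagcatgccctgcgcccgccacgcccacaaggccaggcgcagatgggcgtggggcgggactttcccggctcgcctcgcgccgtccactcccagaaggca
Ndc80, chr17:71526858-71527007, minus strand: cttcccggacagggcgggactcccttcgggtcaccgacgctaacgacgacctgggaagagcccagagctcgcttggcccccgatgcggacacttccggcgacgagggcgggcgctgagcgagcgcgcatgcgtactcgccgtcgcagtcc
In Ube2c, the reverse complement of CCAAT starts 88 and 57 bases before the gene's start, and that of TTTGAA 29 bases before it. In Cdc20, CCAAT starts 53 and 8 bases before the start, with TTTGAA at 18. In Birc5 and Ndc80 these letters are not in the 150 bases shown.

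In single cells most member values were either 0 or well above it. A member was called on in a library at 10 CPM (counts scaled to the library total) or more, a level chosen after the data were seen, trace above 0 but below 10 CPM, and off at 0. In C10 single cells, 49.5% of the 2484 member values were 0, 7.49% were trace and 43.0% were on. In SVEC single cells, 53.8% of 2592 values were 0, 2.97% trace and 43.3% on. Trace was rarer in the shallower SVEC libraries, where 6 libraries had fewer than 100000 counts and 1 count alone exceeds 10 CPM. The share on moved to 44.7% and 40.7% in C10, and to 44.1% and 42.1% in SVEC, with the level at 5 and 20 CPM. Among the 49 members in C10 and 45 in SVEC with a count in at least 25% of libraries, 45.7% and 48.1% of values were on. Over all genes under that filter the shares were 46.6% and 45.1%. In C10, these members were at 0 in 46.3% of values and trace in 8.03%, against 36.9% and 16.5% for all genes. In SVEC they were at 0 in 48.5% and trace in 3.38%, against 48.1% and 6.75%.

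**Figure D1:**
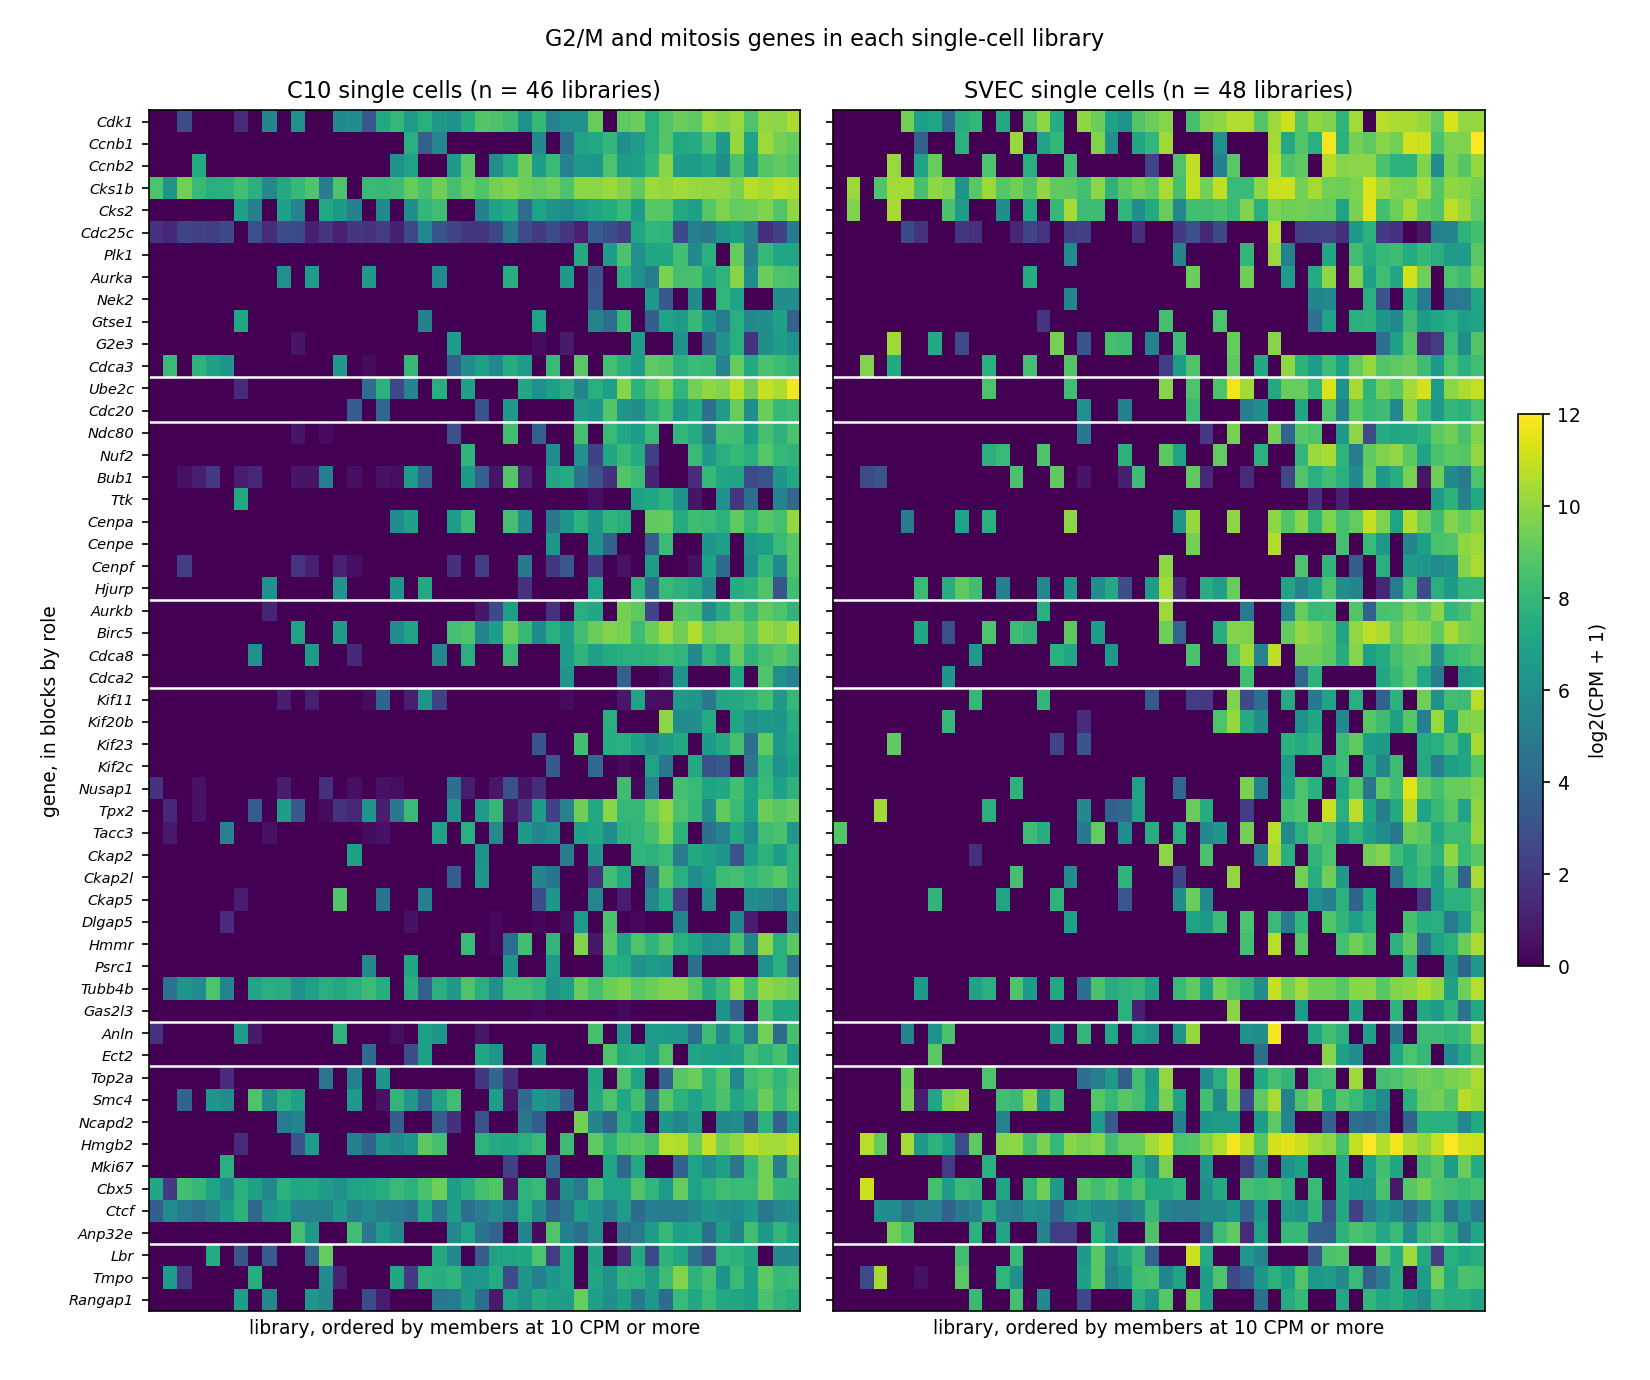
Level of each of the 54 members (rows, in blocks by role from CDK1 and its regulators at the top to nuclear envelope genes at the bottom) in each single-cell library (columns), as log2(CPM + 1), for C10 (n = 46) and SVEC (n = 48). Libraries are ordered by how many members were at 10 CPM or more, from 3 to 54 in C10 and from 1 to 54 in SVEC; Ctcf and Cks1b are above 0 in nearly all columns, and most other genes are filled in mainly toward the right.

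Libraries differed widely in how many members were on. In C10 single cells the number ran from 3 to 54 with a median of 18, and 12 of 46 libraries had 40 or more members on. In SVEC it ran from 1 to 54 with a median of 19.5, and 9 of 48 libraries had 40 or more. Only 3 C10 and 4 SVEC libraries had 5 or fewer, and 31 and 35 lay between these cuts, which were set by choice. The lower quartile was 10 in C10 and 12.75 in SVEC, so libraries between the cuts include many with few members on. The 2 lines overlapped over nearly the whole range. Summed over the 54 members, the level ran from 529 to 24648 CPM in C10 (median 2817) and from 455 to 42554 CPM in SVEC (median 5660).

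**Figure D2:**
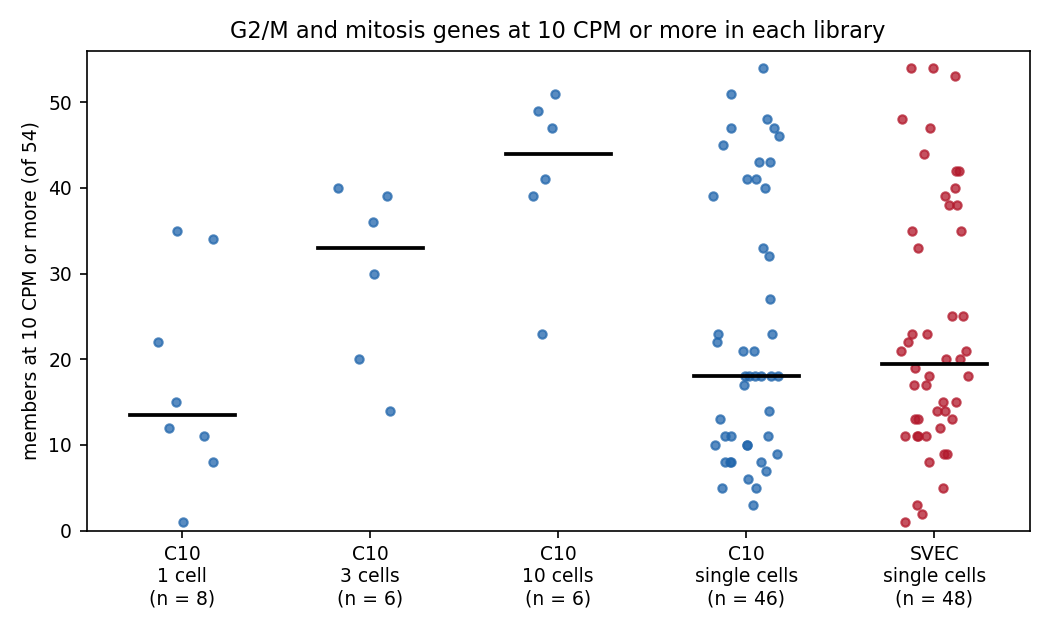
Number of the 54 members at 10 CPM or more in each library (points), by group, with the group median as a line. Medians are 13.5, 33 and 44 for 1, 3 and 10 C10 cells, and 18 and 19.5 for C10 and SVEC single cells; single cells spread from near 0 to all 54.

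Among CDK1 and its regulators, Cks1b, a small protein that docks on cyclin-dependent kinases, was on in 45 of 46 C10 and 46 of 48 SVEC libraries. Its level in C10 ran from 0 to 1797 CPM with a median of 565, and in SVEC from 0 to 2578 CPM with a median of 730. Cdk1 itself was on in 33 C10 and 38 SVEC libraries. Ccnb1, the B-type cyclin that switches CDK1 on, was on in 21 C10 libraries, with a median of 157 CPM where on, and in 27 SVEC libraries, with a median of 521 CPM. Nek2, a kinase that separates centrosomes, was on in 6 and 9 libraries. Cdc25c, the phosphatase that activates CDK1, was unusual: it was trace in 33 of 46 C10 libraries, with a median of 7 counts in those, and on in 12. A pseudogene, Gm3550, lies inside Cdc25c in the RefSeq annotation, and whether it takes part in these low counts was not tested. Cdk1, Ccnb1, Nek2 and Cdc25c were chosen after their values were seen.

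Of the partners of the anaphase-promoting complex, Ube2c, its ubiquitin-conjugating enzyme, was on in 25 C10 libraries and 23 SVEC libraries, at a median of 216 CPM and 601 CPM where on. Its highest value was 3557 CPM in C10 and 3284 CPM in SVEC. Cdc20, its activator, was on in 19 and 18 libraries. Among kinetochore and checkpoint genes, Bub1, a checkpoint kinase, was on in 16 C10 and 17 SVEC libraries and trace in a further 19 and 8. Ttk, the kinase that starts the checkpoint, was on in 9 and 4.

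In the chromosomal passenger complex, which corrects faulty attachments, Birc5 (survivin) was on in 29 C10 and 26 SVEC libraries, with a highest value of 1509 CPM and 1766 CPM. Aurkb, the kinase of the complex, was on in 14 and 17. Of the 15 spindle genes, Tubb4b, a beta-tubulin, was on in 43 of 46 C10 and 35 of 48 SVEC libraries. The others in that group were on in fewer cells, down to 5 C10 libraries for Gas2l3, a linker of actin and microtubules. For cytokinesis, Anln (anillin, of the contractile ring) was on in 17 and 23 libraries, with a highest value of 703 CPM in C10 and 3672 CPM in SVEC.

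Among the 8 chromatin genes the number of libraries on ran from 14 to 46 in C10 and from 17 to 43 in SVEC. Ctcf, an insulator protein, was on in all 46 C10 libraries, between 11.5 and 209 CPM, and in 42 of 48 SVEC libraries. Cbx5 (heterochromatin protein 1 alpha) was on in 43 and 34. Hmgb2, a DNA-bending protein, was on in 29 C10 libraries and in 43 SVEC libraries, with a median over all libraries of 118 CPM in C10 and 929 CPM in SVEC. Of the nuclear envelope genes, Tmpo, a lamina-associated protein, was on in 29 and 31 libraries. In each line, 37 of the 54 members were on in under 23 of the C10 or under 24 of the SVEC libraries. Where a member was on, its median level was higher in SVEC than in C10 for 50 of 54 members, with medians over members of 229 CPM and 132 CPM. SVEC libraries were shallower, so that 1 count stands for more CPM there, and the part of depth in this was not tested. The same was not counted over all genes, so it cannot be read as a trait of the members.

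Detection was then compared between the lines at equal depth. Each library with at least 100000 counts (45 C10, 42 SVEC) was thinned at random to 100000 counts, where 1 count is 10 CPM. A C10 cell then showed between 4 and 52 members (median 20), and a SVEC cell between 4 and 54 (median 20.5). Members took a median of 0.291% of the thinned counts in C10, with a range of 0.0390% to 2.43%, and of 0.624% in SVEC, with a range of 0.109% to 4.36%. The ranges overlap, and the highest SVEC values lie above the C10 maximum. C10 showed more genes in all at this depth, with a median of 4834 against 3850 in SVEC.

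Of the 54 members, 2 differed in detection by Fisher's exact test (two-sided, Benjamini-Hochberg adjusted over all 9537 genes), while 15.4% of all genes tested did; 2.12% were detected more often in SVEC, the direction of both. Hmgb2 had a count in 28 of 45 C10 and 42 of 42 SVEC libraries (adjusted p = 0.000137). Hjurp, the chaperone that places the centromeric histone CENP-A, had a count in 15 of 45 and 28 of 42 (adjusted p = 0.0233). Hjurp overlaps Mroh2a in the RefSeq annotation, and how strand was treated in counting is not given in the sources used here. The nearest members past those were Dlgap5, a spindle assembly factor, with 7 of 45 against 17 of 42 (adjusted p = 0.0810), and Cdc25c, with 22 of 45 against 10 of 42 (adjusted p = 0.114). Psrc1, a spindle protein, had a count in 13 of 45 and 4 of 42 (adjusted p = 0.126). The share of C10 libraries with a count minus the share of SVEC libraries had a median of -1.98 percentage points over members and 7.62 points over all genes.

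**Figure D3:**
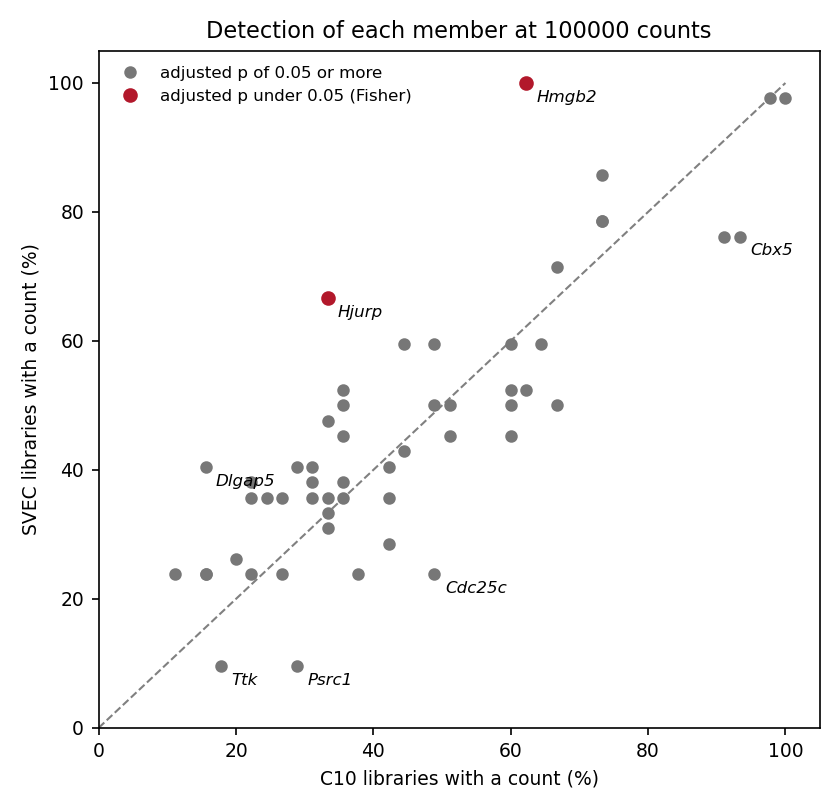
Share of libraries with at least 1 count for each of the 54 members after thinning to 100000 counts, C10 (horizontal axis, n = 45 libraries) against SVEC (vertical axis, n = 42), in percent; the dashed line marks equal shares. Red points, Hmgb2 (62.2% and 100%) and Hjurp (33.3% and 66.7%), passed Fisher's exact test after adjustment over all genes.

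Levels were tested with edgeR's quasi-likelihood test over the 9303 genes with a count in 25% or more of either line's libraries, of which 50 were members. C10 was lower than SVEC for 2 members and higher for 0, while 18.9% of all genes were called, 4.48% as lower in C10 and 14.4% as higher. The members lower in C10 were near their background, and the lack of members higher in C10 stands beside 14.4% of all genes. With the number of genes detected as a covariate, 12 of 50 members were lower, beside 6.86% of all genes. With DESeq2 and with DESeq2 size factors 0 were called, beside 18.1% and 22.6% of all genes, 3.12% and 3.96% as lower. The members' median log2 fold change of C10 over SVEC was -0.52, and 38 of 50 were below 0, beside a median of 0.35 over all genes. With library totals in place of TMM scaling the 2 medians were -0.94 and -0.002, a shift that all genes share.

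Dlgap5 was on in 5 of 46 C10 and 18 of 48 SVEC libraries, at 12.9 ± 57.8 CPM (SD, n = 46) and 82.5 ± 139 CPM (SD, n = 48). Its lowest and median values were 0 in both lines and its highest were 380 and 581 CPM, so the lines overlapped. Its log2 fold change was -2.41 (SE 0.90, edgeR adjusted p = 0.0460). G2e3, a ubiquitin ligase named for its G2/M expression, was on in 9 C10 libraries, with a highest value of 185 CPM, and in 15 SVEC libraries, with a highest value of 1235 CPM. Its log2 fold change was -2.36 (SE 0.89, edgeR adjusted p = 0.0490). For Hmgb2 the value was -1.30 (SE 0.55, adjusted p = 0.0876), and for Ccnb1 -1.69 (SE 0.76, adjusted p = 0.117). Both calls lay close to the threshold: the adjusted p of Dlgap5 ran from 0.00616 to 0.261 and that of G2e3 from 0.0141 to 0.157 over 8 other settings, and with DESeq2 neither was called. In simulated counts without any difference the single-cell fit also made calls, so calls this close to the threshold carry little weight.

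Other genes of the same pathway, were taken from lists of their own. Of 37 tested among 50 other mitotic genes, 2 were lower in C10, Ncapd3, a condensin II subunit, at -2.34 (edgeR adjusted p = 0.00628), and Spc24, a kinetochore subunit, at -1.64 (edgeR adjusted p = 0.0467), and 0 were higher. Of 11 tested regulators of mitotic genes, Rbbp4 was lower at -1.17 (edgeR adjusted p = 0.0497). Over all genes tested, 4.48% were called as lower in C10 and 14.4% as higher. The 2 of 37 lie near the first of these shares.

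Across single cells the members varied together. At 100000 counts per library, 44 members in C10 and 45 in SVEC had a count in at least 25% of libraries. Over the 946 pairs in C10 the median Spearman rho was 0.52 (n = 45 libraries), beside 0.016 over pairs of all genes that passed the same filter. In SVEC it was 0.38 over 990 pairs (n = 42), beside 0.045. Pairs above 0.5 made up 54% of member pairs in C10 and 31.0% in SVEC, against 0.109% and 0.337% of all pairs. After partialling out total counts and genes detected, the medians were 0.46 and 0.35. These are descriptions: the pairs share libraries, and the members' mean rank also went with the number of genes detected (rho 0.58 in C10 and 0.41 in SVEC).

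**Figure D4:**
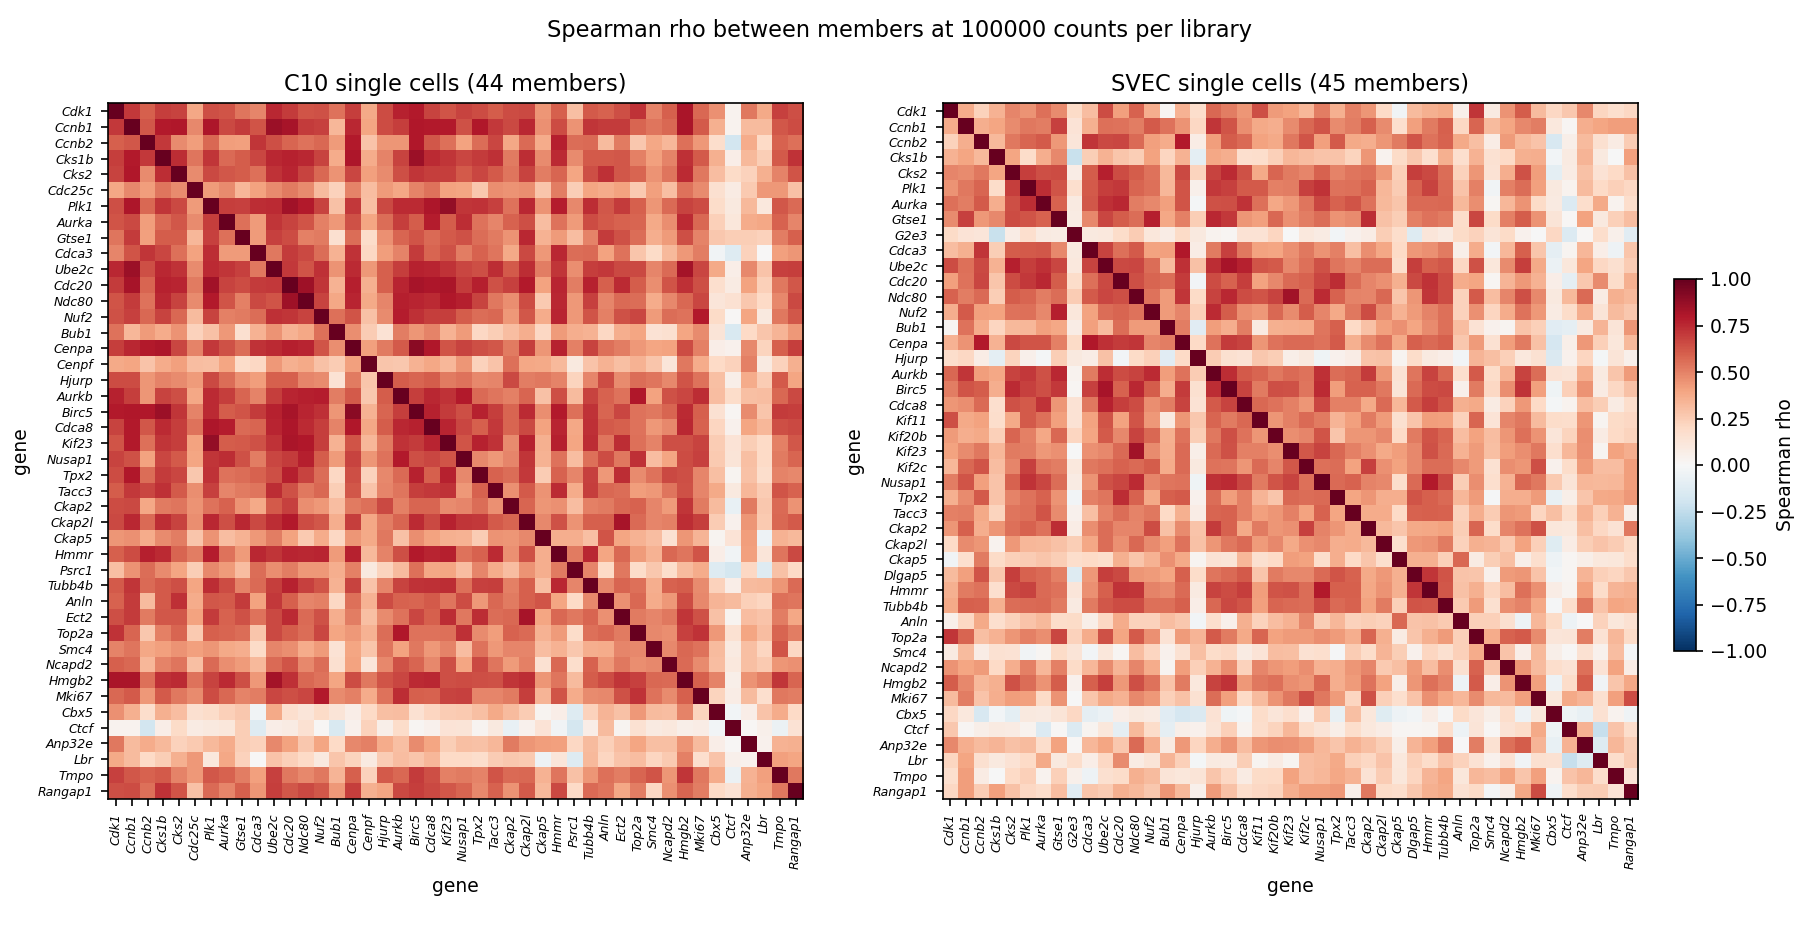
Spearman rho between pairs of members across single-cell libraries thinned to 100000 counts, for C10 (44 members, n = 45) and SVEC (45 members, n = 42); red is positive and blue negative, and genes are in order of role. Most of each matrix is red, with medians of 0.52 and 0.38, and the rows of Ctcf, Cbx5 and Lbr are pale in both lines.

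The closest pair in C10 was Cenpa, the centromeric histone, with Birc5 (rho 0.90), followed by Plk1 with Kif23 (0.88), a mitotic kinase and a motor of the central spindle. Cks1b with Birc5 (0.86) came next. Ccnb1 and Ube2c, the cyclin and the enzyme that leads to its destruction, followed at 0.86. In SVEC the closest were Ndc80 with Kif23 (0.84) and Ube2c with Birc5 (0.83). Pairs were ordered alike in both lines: over the 780 pairs of the 40 members that passed in each, their rho values had a Pearson r of 0.62 and a Spearman rho of 0.61 between the lines. Pairs that share a gene are not independent.

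By role, in the 6 roles with at least 3 members passing, the median rho between members was highest for the passenger complex, at 0.76 in C10 and 0.68 in SVEC, from 3 members only. CDK1 and its regulators had 0.61 and 0.45, and the spindle genes 0.50 and 0.48. Chromatin genes had 0.36 and 0.30, and nuclear envelope genes 0.41 and 0.17. At the loose end stood Ctcf, whose mean rho with the other members was 0.060 in C10 and 0.098 in SVEC, and Cbx5, with 0.23 and 0.044. At the tight end, Birc5 had 0.63 and 0.50, Ube2c 0.63 and 0.50, and Cdc20 0.63 and 0.48. Cks1b had 0.60 in C10 and 0.25 in SVEC, and Hjurp 0.49 and 0.12; the difference between lines was not tested.

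Joint states were counted in whole libraries, with Ccnb1 as the reference. In C10, all 14 libraries with Plk1 on and all 14 with Kif23 on were among the 21 with Ccnb1 on, and neither was on in the 25 without it. Ube2c was on with Ccnb1 in 20 libraries, alone in 5, absent with Ccnb1 on in 1, and neither was on in 20. In SVEC, Ube2c was on with Ccnb1 in 18 libraries and alone in 5, and Ccnb1 was on without it in 9. The nesting was looser in SVEC for Plk1, on in 16 libraries and with Ccnb1 in 13 of them, and for Kif23, with 12 of 13. For Kif2c it held in both lines, with 8 of 8 libraries in C10 and 11 of 11 in SVEC. These genes were chosen after their values were seen, and the difference between lines was not tested.

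The genes outside the list whose pattern was most like the members' mean rank were, in C10, H2az1 (rho 0.86), Tmcc1 (0.84), Mad2l1 (0.84), Stmn1 (0.84) and Cenpm (0.82), over 45 libraries. In SVEC they were Spc25 (0.75), Kif22 (0.75), Kpna2 (0.73), Pttg1 (0.71) and Incenp (0.70), over 42 libraries. Of the 50 other mitotic genes, 27 were detected often enough in C10, with a median rho to that rank of 0.64, and 30 in SVEC, with 0.58; the medians over all genes were 0.060 and 0.091.

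Spread at a given mean was large for members in C10. Relative to a trend of squared coefficient of variation on mean CPM, 29 of the 49 members detected in at least 25% of C10 libraries lay above the 90th percentile of all genes, where 10% lie by construction. Ube2c stood at the 99.9th percentile, Hmgb2 at the 99.8th and Ccnb1 at the 99.3rd, while Ctcf stood at the 4.71st. In SVEC, 13 of 45 lay above the 90th percentile, beside the same 10%, led by Anln at the 99.1st, with Ctcf at the 1.89th. The SVEC count was 23 of 45 at 100000 counts and 2 of 19 among genes in at least 50% of libraries, so it depends on depth and filter. The C10 count was 13 among genes in at least 50% of libraries, where fewer members were tested.

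Pooling cells filled in the missing members. The share of the 54 members on was 31.9% over the 8 libraries of 1 cell. It was 55.2% over the 6 of 3 cells and 77.2% over the 6 of 10 cells. The share at 0 was 50% (43.1% without 1-cell replicate 1), 25.6% and 9.57%. Over all genes tested it was 50.5% (43.97% without that library), 29.3% and 13.2%, close to the members. With a count required in at least 25% of a group's libraries, the share on was 35.4%, 55.97% and 77.2% for members and 27.4%, 43.1% and 46.6% for all genes. That filter was applied in each group apart, giving 47, 53 and 54 members and 11582, 12885 and 14951 genes. These shares are therefore not over 1 fixed set, and their rise cannot be compared between members and all genes. The number of members on ran from 1 to 35 in 1-cell libraries (median 13.5, or 15 without replicate 1), from 14 to 40 in 3-cell libraries (median 33) and from 23 to 51 in 10-cell libraries (median 44). The groups overlapped: 1-cell replicates 6 and 10 had 34 and 35 members on, above 3-cell replicate 10 with 14 and 10-cell replicate 10 with 23. At 400000 counts per library the share at 0 was 62.5%, 37.0% and 16.1%, so the order held at equal depth. In pools, fewer expressing cells and less RNA per cell cannot be told apart.

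Birc5, Ube2c and Cks1b are given library by library. Birc5 ran from 0 to 1901 CPM (median 113) in 1-cell libraries, from 0 to 468 CPM (median 152) in 3-cell libraries and from 92.3 to 536 CPM (median 419) in 10-cell libraries. It was at 0 in 4 of 8 single cells, replicate 1 among them, and in 0 of 6 pools of 10. Its highest value was in a single cell. Ube2c ran from 0 to 1602 CPM (median 36.5), from 25.0 to 679 CPM (median 136) and from 0 to 828.7 CPM (median 333). The 1-cell maximum was in replicate 5 for both genes, and the 10-cell library without Ube2c was replicate 10. Cks1b ran from 0 to 1107 CPM (median 193), from 144 to 461 CPM (median 359) and from 296 to 640 CPM (median 491), with no pool at 0. Its only value of 0 was in 1-cell replicate 1. Without that library the 1-cell values ran from 106 to 1107 CPM, so pooling filled in nothing for Cks1b.

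The coefficient of variation between libraries fell with pooling for most members. Its median over members was 186%, 135% and 83.1% at 1, 3 and 10 cells, and over all 13645 genes 185%, 117% and 85.5%. The ratio of 1-cell to 10-cell spread had a median of 2.42 over 53 members (2.24 without 1-cell replicate 1) and 2.28 over all genes. Averaging 10 independent cells would lower the spread 3.16-fold. It was lower at 10 cells for 49 of 53 members and for 93.3% of all genes, so members were smoothed like other genes. Cbx5 had the largest ratio, from 120% to 48.3% and 25.8%, and Cks1b went from 109% to 37.5% and 31.8%. The 4 members that were not lower were Gas2l3, G2e3, Hmmr and Aurka; Hmmr, a spindle protein, had 143%, 58.4% and 152%. The coefficient cannot exceed 283% in 8 libraries or 245% in 6, so the ratio is bounded for genes seen in 1 library. As the SD of log2(CPM + 1), the spread of members was 3.19, 2.64 and 1.87, above the 2.06, 1.38 and 1.06 of all genes.

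**Figure D5:**
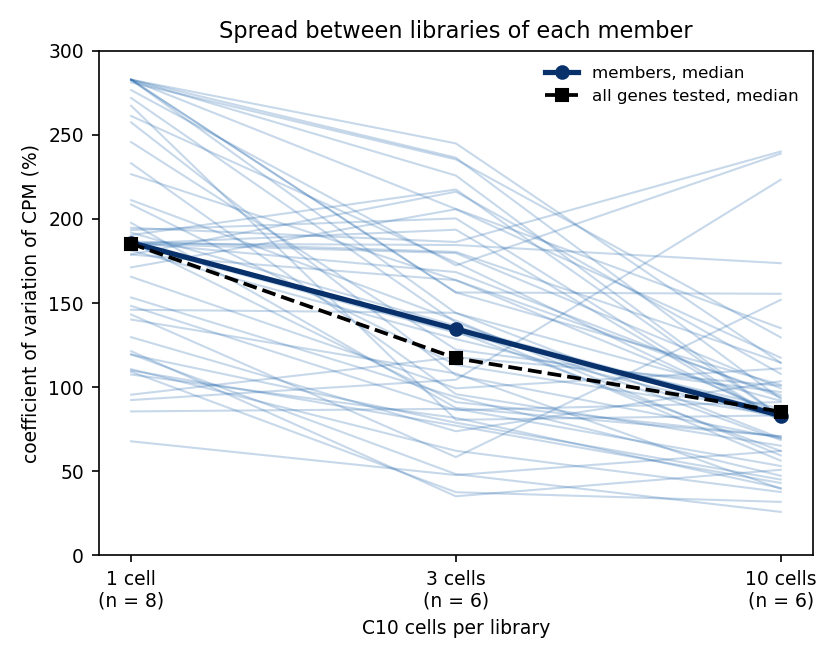
Coefficient of variation of CPM between libraries for each member (thin lines), the median of members (circles) and the median of all 13645 genes tested (squares), for C10 libraries of 1 cell (n = 8), 3 cells (n = 6) and 10 cells (n = 6). The member median goes from 186% to 135% and 83.1%, close to that of all genes at 1 and 10 cells.

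Levels in the input series were tested in one edgeR model over the 3 groups. In 10 cells against 1 cell, 4 of 54 members were higher and 0 lower, beside 10.7% of all 13645 genes, 10.6% as higher and 0.0879% as lower. In 3 cells against 1 cell, 2 were higher, beside 6.35% of all genes, 6.07% as higher and 0.278% as lower. In 10 against 3 cells 0 were called by edgeR, beside 0% of all genes, so this 0 says nothing of the members. At an unadjusted edgeR p under 0.05 there were 2 members (Ttk and Gas2l3), beside 1346 of all 13645 genes. With limma and DESeq2 0 members were called, beside 0.257% and 1.89% of all genes. These comparisons share libraries. The members' median log2 fold change was 0.26 for 10 against 1 cell, beside 0.36 over all genes.

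Aurkb was at 0 in all 8 libraries of 1 cell. It ran from 0 to 116 CPM in the 3-cell libraries (median 10.9) and from 3.26 to 68.4 CPM in the 10-cell libraries (median 28.2). No 10-cell library overlapped the 1-cell group, while 2 of the 3-cell libraries were at 0 too. The mean of 34.0 ± 28.8 CPM (SD, n = 6) at 10 cells was at least 30.4-fold higher than a floor of 3 counts per 1-cell library (at least 119-fold without replicate 1), with an edgeR adjusted p of 0.0230. At 3 cells the mean of 38.1 ± 51.8 CPM (SD, n = 6) was at least 34.0-fold higher (edgeR adjusted p = 0.0330). In the separate C10 single-cell set, Aurkb was on in 14 of 46 libraries, so its absence from these 8 cells is not a property of all C10 cells.

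Kif2c, a kinesin that takes microtubules apart at kinetochores, had 2 counts in all among the 8 libraries of 1 cell. It was on in 2 of 6 libraries of 3 cells and in 5 of 6 of 10 cells, where it ran from 0 to 81.3 CPM (median 27.4). The pooled ratio of 10 cells to 1 cell was 1251 (95% counting interval 346 to 10340), with an edgeR adjusted p of 0.0238. That interval is taken over summed reads and leaves out the spread between libraries. In the separate C10 single-cell set, Kif2c was on in 8 of 46 libraries, so its near absence from these 8 cells is not a property of all C10 cells. For 3 against 1 cell its edgeR adjusted p was 0.0392. Aurkb passed the 50% filter only through the pools and Kif2c only through the 10-cell group, where they were high. Their calls are therefore not independent of the filter. Within that limit, leaving out any 1 of the 20 libraries kept both called at 10 against 1 cell. Without a filter on low counts their adjusted p was 0.0514 and 0.0527, so neither was called. Aurkb kept this call in 4 of 6 other settings (adjusted p up to 0.0735) and Kif2c in 3 of 5 (up to 0.117). The 3 against 1 cell calls were less stable. Aurkb lost its call without 1-cell replicate 1, 5, 9 or 14 (adjusted p up to 0.0587) and with limma (0.181). Kif2c lost its call without 1-cell replicate 1, 2, 5, 9, 13 or 14 (up to 0.0764), with DESeq2 size factors (0.0539), with no filter (0.0673) and with limma (0.423).

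Gas2l3 and G2e3 were also called at 10 against 1 cell, with edgeR adjusted p of 0.0465 and 0.0467, but each rested on 10-cell replicate 2. There Gas2l3 was at 13.3 CPM and G2e3 at 31.1 CPM, while the other 5 libraries of 10 cells had at most 0.491 CPM and 0.203 CPM. Without that library the adjusted p was 1 and 0.944. Both were also lost without 1-cell replicate 1, at 0.0813 and 0.0875. G2e3 passed the detection filter only through the 10-cell group, where it was called higher, so its call is not independent of that filter.

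The 1-cell libraries of the input series can be set beside the separate C10 single cells at equal depth. At 100000 counts a 1-cell library showed between 1 and 38 members (median 16) and a C10 single cell between 4 and 52 (median 20), with medians of 0.352% and 0.291% of counts. The ranges overlap, and the libraries belong to separate sets, so no test was made.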

How the data were processed

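Full-length cDNA (SMART-Seq v4 Plus) of 116 libraries was sequenced. The authors deposited whole-number read counts per gene, 1 file per library; the submitters' processing notes name FastQC, STAR and HTSeq. Build, annotation, versions and strand setting are not given in the sources used here. No molecular identifiers are described, so intervals and floors cover counting error only. The closing counter rows were left out of totals; reads not aligned made up 14.6% to 99.8% and reads in no feature 0.0627% to 9.28% of all reads. The counter for reads aligned to several places was 0 in all 116 files, and how such reads were treated cannot be told; 19 members overlap another gene in RefSeq.

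Counts were scaled to CPM over genes, and 2 C10 single-cell libraries under 1000 counts were left out. Tests used edgeR 4.0.16 (TMM, quasi-likelihood F test, genes in at least 25% of a line or 50% of an input group), with limma 3.58.1 and DESeq2 1.42.0 as alternatives, R 4.3.3, and Fisher's exact test in scipy 1.17.1, with Benjamini-Hochberg adjustment over all genes. Thinning, correlation and spread used Python 3.11.15. The edgeR, limma and Python statistics were tested on simulated data, DESeq2 was not. Groups and replicate numbers came from titles; no batch is given. Members named are those passing edgeR for C10 against SVEC or 10 against 1 cell and the highest by median CPM in each role; others were chosen after their values were seen. The members and lists were chosen with earlier results of these data known.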

Additional observations from a re-analysis of the deposited data

Results flagged for a closer look

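Values of the named members in the input series were searched for a library that stands apart from the rest of its group, by Dixon's ratio at the 95% level. Of 42 groups, 10 had one; chance flags about 1 in 20 where values are near normal, which these values with many zeros are not. Single-cell replicate 5 of the input series held 3 of them: Ube2c at 1602 CPM, where the next library was at 255 CPM, Birc5 at 1901 CPM, with the next at 783 CPM, and Anln at 13.8 CPM, with the next at 0.195 CPM. Replicate 5 of the 3-cell libraries held Ube2c at 679 CPM and Bub1 at 140 CPM, with the next at 253 and 28.6 CPM. Replicate 2 held G2e3 at 21.4 CPM in the 3-cell group and at 31.1 CPM in the 10-cell group, and Gas2l3 at 13.3 CPM in the 10-cell group. These genes were named because of calls that rest on that 10-cell library, so the values in it are no separate evidence. In the 10-cell group Anln was at 79.8 CPM in replicate 9, and in the 3-cell group Tmpo was at 388 CPM in replicate 1. The ubiquitin-conjugating enzyme Ube2c and the passenger protein Birc5 were thus highest in the same single cell.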

How the results depend on the processing

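The 2 calls of C10 against SVEC became 0 with DESeq2 size factors in edgeR and 0 with genes in at least 50% of a line. They were also 0 with DESeq2 and 0 with libraries of at least 100000 counts. In those fits 22.6%, 20.6%, 18.1% and 21% of all genes were called, 3.96%, 3.6%, 3.12% and 3.66% as lower in C10. With genes detected as a covariate there were 12, all lower in C10, beside 6.86% of all genes. In each of these fits the members' median lay below that of all genes. The 4 calls of 10 against 1 cell became 2 with DESeq2 size factors, 0 with no filter, 2 with genes in at least 90% of a group and 8 with limma, where 3.33%, 0.247%, 4.88% and 10.4% of all genes were called. Leaving out 1 library gave 2 to 11. It gave 2 without 1-cell replicate 1, 2, 9 or 13 or 10-cell replicate 2. All genes called there were 2.46%, 8.92%, 9.28%, 8.7% and 9.97%. It gave 8 without 1-cell replicate 6 and 11 without 1-cell replicate 10, where 12.6% and 20.3% of all genes were called. The 2 calls of 3 against 1 cell became 1 with DESeq2 size factors, 1 with no filter and 1 with the 90% filter. They became 4 with DESeq2 and 1 with limma. All genes called in these fits were 1.44%, 0.335%, 3.33%, 9.23% and 0.887%. Without 1 library there were 0 to 6 calls. There were 0 without 1-cell replicate 1, 9 or 14, where 0.235%, 0.235% and 0.403% of all genes were called. With so few calls over all genes, those zeros say nothing of the members. There were 5 without 1-cell replicate 6 and 6 without 1-cell replicate 10 (7.22% and 14.9% of all genes). There were 4 without 3-cell replicate 10 (6.06%). There was 1 without 1-cell replicate 2, 5 or 13 (1.64%, 0.286% and 1.03%). For 10 against 3 cells it stayed 0 without any 1 library. Members differing in detection numbered 5 without thinning (3 more often in C10), beside 32.9% of all genes. High spread was found for 13 C10 members in the 50% filter, where fewer members were tested. It was found for 23 SVEC members thinned. In the 50% filter it was found for 2 SVEC members and so did not hold, beside 10% of all genes by construction. The cause of these changes was not tested, apart from the fewer genes tested under the 50% and 90% filters.

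Replicate numbers did not pair libraries: deviations of same-numbered libraries correlated above 0.1 in 0 of 6 pairs of each input comparison and in 1 of 46 single-cell pairs. With the replicate block, members called were 6 for C10 against SVEC (2 higher, 4 lower, beside 31.5% and 3.03% of all genes), 0 for 10 against 1 cell and 0 for 3 against 1 cell. In both input comparisons 0 of all 13673 genes were called with the block, so these zeros say nothing of the members.

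In all, 69 recomputed summary values stayed within 1.5 times of the reported count or within a set spread, and 37 did not. For co-variation that spread was taken over pairs of members, not over replicates. The zeros of 10 against 3 cells are among the 69. In the edgeR fits there 0 of all genes were called, so those zeros say nothing of the members. Direction was followed only for members called in the main edgeR fits, and none of them changed it in the settings that gave an adjusted p. Depth limits single SVEC cells most: in 6 of 48 libraries 1 count is already above 10 CPM.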

Other observations

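S phase genes serve DNA replication, the step before G2. Among 31 S phase genes detected often enough in C10, the median Spearman rho with the members' mean rank was 0.42 (n = 45 libraries), and Tyms, thymidylate synthase, was highest at 0.78. Among 36 in SVEC the median was -0.005 (n = 42 libraries), with Rrm2, a subunit of ribonucleotide reductase, at 0.44 and Pcna, the sliding clamp, at -0.41. Whether the lines differ in this was not tested. Of 41 S phase genes tested by edgeR, 7 were lower in C10 than in SVEC and 0 higher, beside 4.48% and 14.4% of all genes, with a median log2 fold change of -1.13 beside 0.35 over all genes. Slbp, which binds histone mRNA, ran from 0 to 717 CPM in C10 (median 79.9) and from 0 to 2878 CPM in SVEC (median 748), at a log2 fold change of -2.58 (SE 0.54, edgeR adjusted p = 9.51e-05). Mcm4, a subunit of the replicative helicase, followed at -2.33 (SE 0.69, edgeR adjusted p = 0.00857).

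Among 5 tested inhibitors of cyclin-dependent kinases, Cdkn2a, the gene of p16 and p19ARF, had a count in 1 of 46 C10 and 20 of 48 SVEC libraries, and its log2 fold change was -4.29 (SE 0.81, edgeR adjusted p = 1.39e-05). Its highest value was 21.3 CPM in C10 and 142 CPM in SVEC. Cdkn2a passed the detection filter only through SVEC, where it was high, so its edgeR call is not independent of that filter. At 100000 counts, Cdkn1a, the gene of p21, went the other way, with a count in 29 of 45 C10 and 12 of 42 SVEC libraries (Fisher's exact test, adjusted p = 0.0134). Its edgeR log2 fold change was 1.48 (adjusted p = 0.169). Genes that went most strongly against the members' mean rank were S100a16 in C10 (rho -0.61) and Prkar1a (-0.56) and Cav1 (-0.53) in SVEC. These genes were chosen after their values were seen.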
